A study of Mus musculus with 6 samples.

Results

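The genes described here encode the proteins of the mitochondrial ribosome. They were chosen by symbol, as the genes named Mrpl or Mrps followed by a number and at most 1 letter from a to c, which gave 78 of the 53153 gene symbols in the table, 49 named Mrpl and 29 named Mrps. Their expression was measured by bulk RNA-seq in γδ T cells, a lineage of T cells whose antigen receptor is built from γ and δ chains, sorted from the gastrointestinal stromal tumors (GIST) of Kit V558del/+ mice. These C57BL/6J mice carry 1 activating allele of Kit in the germ line, so that the tumor and every host cell share the allele, and were 8 to 10 weeks old. Mice received imatinib, an inhibitor of the KIT kinase, in the drinking water at 600 mg per litre for 1 week (3 libraries), and other mice received vehicle (3 libraries). All libraries carry batch 1 in the labels. The labels do not say whether each library came from a separate mouse, so the p-values measure the spread between libraries only. The comparison asks how the early response to imatinib is reflected in the γδ T cells of the tumor.

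Mitochondria keep a small genome whose messenger RNAs code for core subunits of the respiratory chain and of ATP synthase, and these are translated inside the organelle by a ribosome of its own. The RNA of that ribosome is read from the mitochondrial genome, whereas all of its proteins are encoded in the nucleus, made on cytosolic ribosomes and imported. Some of the proteins have a counterpart in the bacterial ribosome and others were gained in the mitochondrial lineage. In T cells, activation is accompanied by growth of the mitochondria and of their translation machinery.

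The libraries held 21333897 to 25214210 counts in named genes. Markers of γδ T cells summed to 3016 ± 571 CPM (counts relative to the scaled size of the library) on imatinib and 1618 ± 487 CPM on vehicle (SD, n = 3 each), with 3 of 8 past the test, all 3 higher. Macrophage markers were also abundant for a sorted T cell population, at 4915 to 9620 CPM on imatinib and 9219 to 12131 CPM on vehicle. The 1 of 8 that passed was higher (Mrc1, log2 fold change 0.73), whereas the other 7 lay below 0 and did not pass. Markers of B and plasma cells were more abundant still, at 18273 to 27466 CPM on imatinib and 3301 to 26798 CPM on vehicle, with 0 of 6 past the test. Markers of αβ T cells summed to 432 to 533 CPM on imatinib and 346 to 364 CPM on vehicle, and 3 of 6 passed, all 3 higher (Trac, Trbc1 and Trbc2, which encode constant parts of the αβ receptor). The other 3, the coreceptor genes Cd4, Cd8a and Cd8b1, lay below 0 and did not pass (log2 fold changes -0.27, -1.31 and -1.24). Markers of interstitial cells of Cajal and tumor (Kit, Ano1, Etv1) summed to 77.1 to 282 CPM against 25.5 to 29.9 CPM, with 2 of 3 past the test, and fibroblast markers to 330 to 650 CPM against 67.3 to 230.4 CPM, with 0 of 6 past the test. The nuclear RNAs Malat1 and Neat1 both fell, and summed to 110 to 129 CPM on imatinib against 337 to 474 CPM on vehicle. No marker was at 0 in all libraries. The part of these other cells and of the nuclear RNAs in the results below was not tested, and in bulk RNA fewer cells of a type and less RNA per cell cannot be told apart.

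The mitochondrial ribosomal protein genes moved little on imatinib. Of the 78 members, 1 was higher (Mrps5) and 1 lower (Mrpl37) at an adjusted p under 0.05 (edgeR quasi-likelihood test, Benjamini-Hochberg adjustment over all 16621 genes tested), and the other 76 did not pass. Over all genes tested, 6.15% were higher and 8.42% lower by the same rule, against 1.28% of the members in each direction. All 78 members passed the filter on low counts.

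The fold changes of the members were nevertheless placed to one side of zero with the standard scaling between libraries (TMM). The log2 fold change was above 0 in 57 of 78 members (73.1%), as it was in 51.2% of all genes tested. The median of the members was 0.13 and their quartiles were -0.01 and 0.28, against a median of 0.01 and quartiles of -0.36 and 0.35 for all genes. The sign depends on what the libraries are scaled to, since with library sizes set to the counts of the CD3 genes (Cd3d, Cd3e and Cd3g, which encode chains shared by all T cell receptors) 0 of 78 members lay above 0 and the median was -0.60. That scaling placed the median of all genes at -0.72, and the members lay 0.12 above it, close to the 0.11 by which they lay above all genes with TMM. Under TMM Cd3d, Cd3e and Cd3g themselves had log2 fold changes of 0.71, 0.62 and 0.70, each above that of every member, and only Cd3d passed the test. Scaling to them lowers all genes almost alike, so members below 0 follow from that choice and the distance to all genes could hardly change.

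The spread of the members was narrow. Their log2 fold changes ranged from -0.72 to 0.57 with an SD of 0.23, while those of all genes had an SD of 0.81. Within 0.5 of zero lay 75 of 78 members (96.2%), as did 63.2% of all genes, and the 3 beyond it were Mrpl37, Mrps5 and Mrps18b. The median SE of a member's log2 fold change was 0.16, which is above the median log2 fold change itself, and it was 0.22 over all genes tested. A stricter filter (at least 1 CPM in every library) kept all 78 members but 12843 genes in all, so the genes tested include some at lower levels. The part of level in the narrower spread was not tested.

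The libraries gave a like split. In 17 of 78 members (21.8%) every imatinib library was above every vehicle library, as in 17.5% of all genes. In 4 members (5.13%) every imatinib library was below every vehicle library, as in 20.2% of all genes. The groups overlapped in the other 57. At an unadjusted p under 0.05, 8 members (10.3%) were higher and 2 (2.56%) lower, against 14.2% and 16.8% of all genes.

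**Figure D1:**
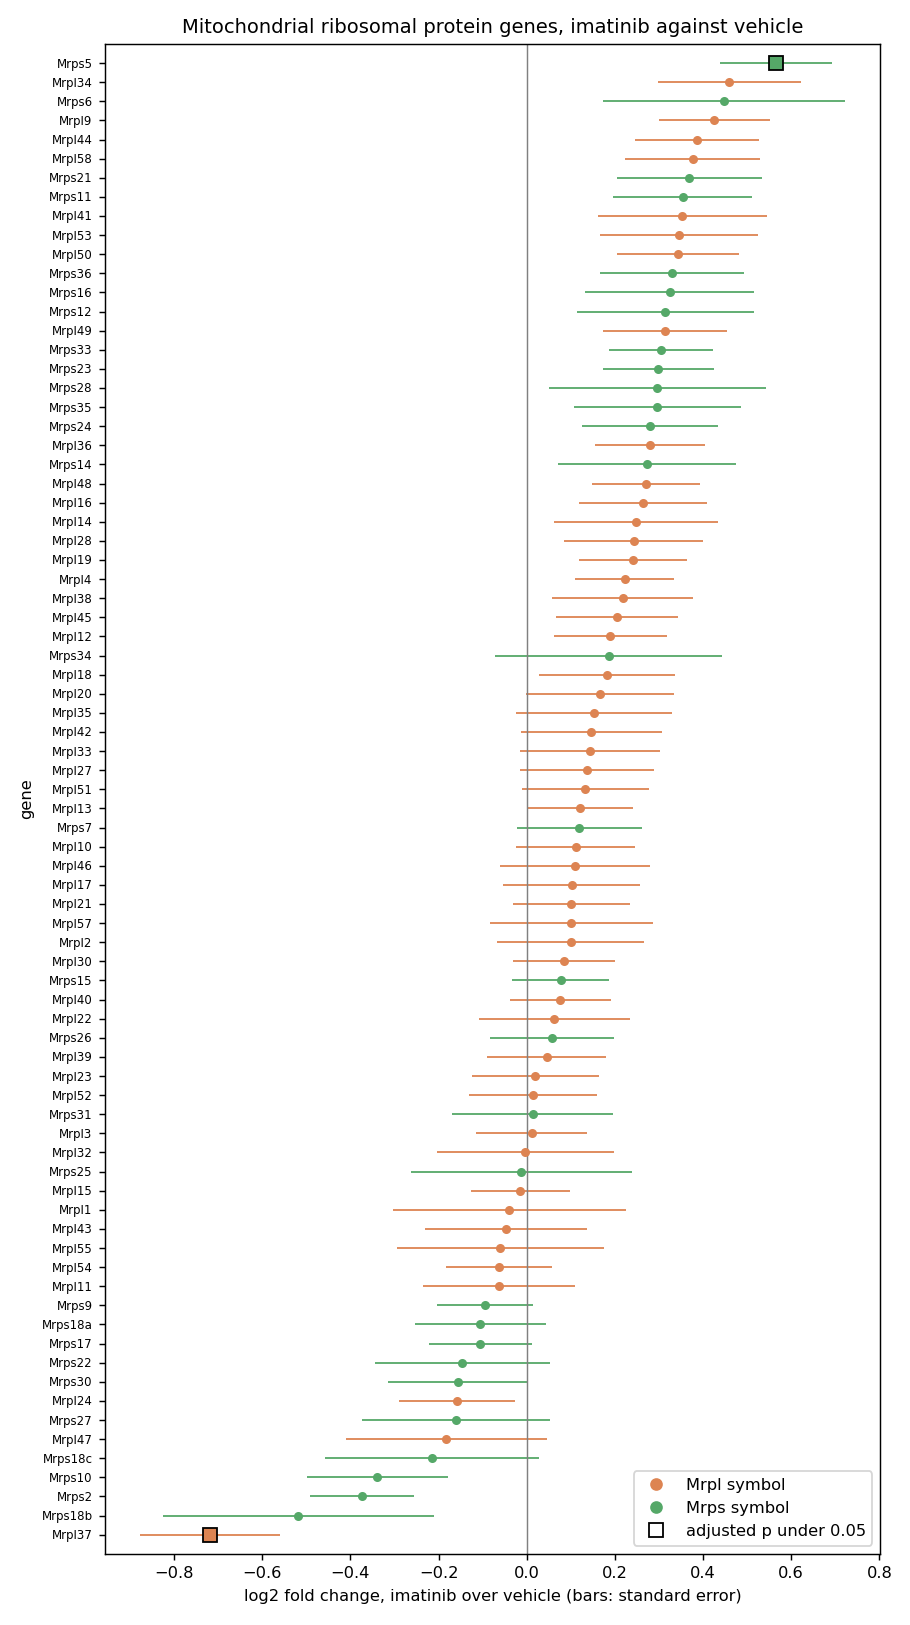
Log2 fold change of each of the 78 mitochondrial ribosomal protein genes, imatinib over vehicle (horizontal axis, TMM scaling; bars, standard error), ordered from the highest to the lowest and coloured by symbol. Values run from 0.57 in Mrps5 to -0.72 in Mrpl37, the 2 genes drawn as squares at an adjusted p under 0.05, and 57 of 78 lie above 0, whereas 0 of 78 do with scaling to the CD3 genes.

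**Figure D2:**
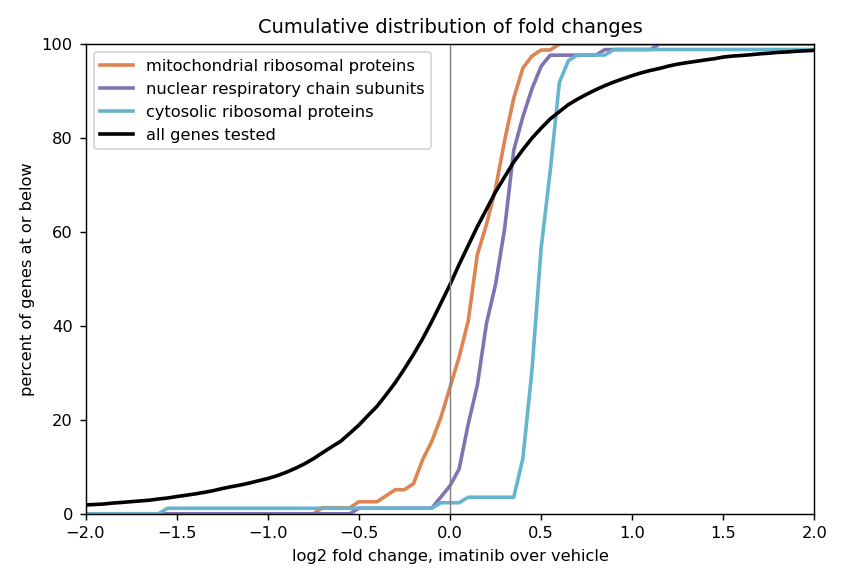
Percent of genes (vertical axis) at or below each log2 fold change, imatinib over vehicle (horizontal axis, TMM scaling), for the 78 mitochondrial ribosomal protein genes, 84 nuclear respiratory chain subunits, 85 cytosolic ribosomal proteins and all 16621 genes tested. The medians are 0.13, 0.25, 0.49 and 0.01 (-0.60, -0.49, -0.24 and -0.72 with scaling to the CD3 genes), and the line of the mitochondrial ribosomal proteins is steeper than that of all genes, with 96.2% against 63.2% within 0.5 of zero.

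The sequences before the start are shown for the 2 members that passed the test and for the 2 with the next smallest p, Mrpl9 and Mrps2, to set fold changes of opposite sign side by side. They are taken from RefSeq (GRCm38.p6), 250 bases up to the start, 5′ to 3′ on the strand of the gene, with any motif searched in capitals.
Mrps5 (chr2:127587176-127587425, plus strand): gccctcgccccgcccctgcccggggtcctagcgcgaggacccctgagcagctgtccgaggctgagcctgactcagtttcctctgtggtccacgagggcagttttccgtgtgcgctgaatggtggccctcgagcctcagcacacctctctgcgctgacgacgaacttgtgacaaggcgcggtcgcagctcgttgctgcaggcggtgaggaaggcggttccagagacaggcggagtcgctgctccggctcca
Mrpl37 (chr4:107066867-107067116, minus strand): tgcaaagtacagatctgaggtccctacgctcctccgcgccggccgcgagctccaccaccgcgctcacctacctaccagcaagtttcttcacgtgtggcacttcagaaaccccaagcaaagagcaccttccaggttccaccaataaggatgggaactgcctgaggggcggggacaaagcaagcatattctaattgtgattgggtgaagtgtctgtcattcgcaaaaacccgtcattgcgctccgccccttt
Mrpl9 (chr3:94443086-94443335, plus strand): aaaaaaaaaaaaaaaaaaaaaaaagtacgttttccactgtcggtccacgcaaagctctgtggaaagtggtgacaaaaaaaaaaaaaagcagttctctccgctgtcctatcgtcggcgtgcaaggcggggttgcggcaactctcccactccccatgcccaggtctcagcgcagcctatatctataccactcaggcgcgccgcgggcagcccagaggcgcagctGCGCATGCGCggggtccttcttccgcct
Mrps2 (chr2:28467816-28468065, plus strand): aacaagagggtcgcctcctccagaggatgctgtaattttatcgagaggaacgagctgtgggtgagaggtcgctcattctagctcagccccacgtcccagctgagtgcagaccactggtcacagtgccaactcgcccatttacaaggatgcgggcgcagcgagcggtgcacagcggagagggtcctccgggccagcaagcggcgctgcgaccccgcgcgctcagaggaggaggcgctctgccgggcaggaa
In Mrpl37 the motif lies after the start, and the site with 10 bases on each side is given with the motif in capitals.
Mrpl37 site (chr4:107066822-107066850, minus strand): tgcacgggcaAAGATGGCGgcgtccaggt

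The motifs searched, on both strands of the 300 bases from 250 before to 50 after each start, were GCGCATGCG of NRF1, CCGGAAGT of the ETS family such as GABPA, AAGATGGCG of YY1 and ACTACAATT of ZNF143 and THAP11. RefSeq promoters were found for 69 of the 78 members, 75 promoters in all. The NRF1 letters were in 9.33% of the promoters of the members and 1.75% of all 32851 promoters, those of the ETS family in 16.0% and 3.89%, those of YY1 in 10.7% and 1.40%, and those of ZNF143 and THAP11 in 0 of 75 and 0.393%. Mrpl9 has the NRF1 letters on both strands, overlapping each other, from 28 bases before the start, and Mrpl37 has the YY1 letters 27 bases after it. Mrps5 and Mrps2 have none of the 4 in these windows.

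The fold changes of members with and without a motif lay close together. Under TMM the median log2 fold change was 0.06 in the 7 members with the NRF1 letters and 0.14 in those without, 0.04 in the 12 with the ETS letters and 0.12 without, and 0.15 in the 8 with the YY1 letters and 0.11 without. The YY1 group held Mrpl37, the lowest member, beside Mrps11, whose log2 fold change was 0.35. A match of letters is a description of the sequence and not evidence of binding.

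Among proteins of the small subunit with a bacterial counterpart, Mrps5 stood apart. Mrps5 (ENSMUSG00000027374.12, chromosome 2, 127587222 to 127606829, plus strand, GRCm38) encodes the counterpart of bacterial S5, a protein that in bacteria bears on the accuracy of decoding. It had 67.3, 50.9 and 59.0 CPM in the 3 imatinib libraries, against 41.7, 40.3 and 37.7 CPM in the 3 vehicle libraries. The lowest imatinib library lay above the highest vehicle library, and the log2 fold change was 0.57 ± 0.13 (SE, edgeR adjusted p = 0.0243). The adjusted p was 0.0108 without imatinib replicate 2 and lay between 0.0538 and 0.0839 when any other library was left out. With scaling to the CD3 genes its log2 fold change was -0.18 (adjusted p = 0.697).

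The gene next to Mrps5 moved the other way. Zfp661, which encodes a zinc finger protein, starts 128 bases from Mrps5 on the opposite strand, and its log2 fold change was -1.03 (adjusted p = 0.0475). RefSeq places the start of Mrps5 inside the gene as GENCODE annotates it, so that most of the bases printed for Mrps5 lie within the annotated gene. The exons of Mrps5 overlap no other annotated gene. Zfp661 was looked up after the values were seen.

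Mrps2, the counterpart of bacterial S2, gave values in the other direction from Mrps5. It had 20.3, 23.0 and 22.4 CPM on imatinib, against 29.7, 27.7 and 27.8 CPM on vehicle. All imatinib libraries were below all vehicle libraries, but with a log2 fold change of -0.37 ± 0.12 it did not pass the adjusted test (adjusted p = 0.0655). It passed with a stricter filter on low counts (adjusted p = 0.0474) and with scaling to library totals (adjusted p = 0.0442).

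Mrps10, the counterpart of bacterial S10, had 12.6, 13.0 and 10.9 CPM on imatinib, against 13.8, 15.4 and 17.0 CPM on vehicle (log2 fold change -0.34, adjusted p = 0.190). Mrps17, the counterpart of bacterial S17, had 23.2, 23.5 and 21.4 CPM on imatinib, against 24.7, 25.03 and 23.6 CPM on vehicle, a log2 fold change of only -0.11 (adjusted p = 0.581). In both genes the groups did not overlap and neither passed the test. The 16 small-subunit proteins with a bacterial counterpart thus held the call of Mrps5. They also held 3 of the 4 members in which all imatinib libraries were below all vehicle libraries, a pattern seen in 20.2% of all genes tested. Under TMM their median was 0.28, with 11 of 16 above 0. With scaling to the CD3 genes the median was -0.45, and the 2 medians lay 0.26 and 0.27 above all genes. The median was 0.13 without imatinib replicate 1, 0.12 without imatinib replicate 2, 0.18 without vehicle replicate 2, 0.16 with limma voom and 0.17 after the dependence on length and GC was removed.

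The small-subunit proteins classed as mitochondria-specific, with Mrps18b counted among them although it is related to a bacterial protein, had 0 of 10 members past the test, a median of 0.04 and 6 of 10 above 0 under TMM (-0.64 and 0 of 10 with scaling to the CD3 genes, -0.00162 and 5 of 10 with library totals). The median was -0.02 to 0.11 when 1 library was left out. Mrps33 had 26.8, 29.3 and 31.5 CPM on imatinib, against 23.0, 23.4 and 24.6 CPM on vehicle (log2 fold change 0.30, adjusted p = 0.118). Mrps23 had 49.2, 39.0 and 40.7 CPM on imatinib, against 35.7, 32.7 and 36.4 CPM on vehicle (log2 fold change 0.30, adjusted p = 0.146). The groups did not overlap in either, and the log2 fold change of Mrps23 was 0.19 without imatinib replicate 1.

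Mrps18b, 1 of the 3 homologues of bacterial S18 in the mitochondrial ribosome, had 4.70, 10.1 and 4.99 CPM on imatinib, against 9.55, 8.59 and 10.2 CPM on vehicle. Imatinib library 2 lay within the vehicle range and the other 2 imatinib libraries were below it, which gave the widest spread of any member on imatinib (a coefficient of variation, CV, of 46.0%). Its log2 fold change was -0.52 ± 0.31 (adjusted p = 0.291), and -0.98 without imatinib replicate 2 (adjusted p = 0.0245). The other 2 homologues, Mrps18a and Mrps18c, are counted with the mitochondria-specific proteins of the large subunit and the small-subunit proteins with a bacterial counterpart. They did not pass, at -0.11 (adjusted p = 0.673) and -0.22 (adjusted p = 0.590) on the log2 scale under TMM.

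In the large subunit Mrpl37 was the 1 member to pass the test. Mrpl37 (ENSMUSG00000028622.11, chromosome 4, 107055874 to 107066868, minus strand, GRCm38) encodes a mitochondria-specific protein of the large subunit. It had 20.7, 24.9 and 17.6 CPM on imatinib, against 33.3, 39.2 and 31.6 CPM on vehicle. The highest imatinib library was below the lowest vehicle library, and the log2 fold change was -0.72 ± 0.16 (SE, edgeR adjusted p = 0.0226). It was lower under every scaling tried, with -0.76 for library totals and -1.40 for the CD3 genes. The adjusted p was 0.0484 without imatinib replicate 1 and 0.0097 without imatinib replicate 2, and lay between 0.0531 and 0.0834 without imatinib replicate 3 or any 1 of the vehicle libraries.

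The YY1 letters shown for Mrpl37 lie on the gene's own strand, and its exons overlap no other annotated gene. Cyb5rl encodes a relative of cytochrome b5 reductase and starts 120 bases from it on the opposite strand. Its own log2 fold change was -0.37 (adjusted p = 0.477). The fall of Mrpl37 was not shared by the mitochondria-specific proteins of the large subunit as a group, of which 16 of 21 lay above 0 under TMM, with a median of 0.13 (-0.59 with scaling to the CD3 genes, where all 21 lay below 0, and 0.07 without imatinib replicate 2 or vehicle replicate 2).

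Members of that group on the other side included Mrpl44, which carries a fold related to RNase III. It had 22.0, 24.7 and 21.3 CPM on imatinib, against 18.7, 15.3 and 18.04 CPM on vehicle (log2 fold change 0.39, adjusted p = 0.0997). Mrpl58, a peptidyl-tRNA hydrolase that releases chains from stalled ribosomes, had 22.0, 23.4 and 18.1 CPM on imatinib, against 14.98, 15.9 and 18.1 CPM on vehicle, where the lowest imatinib and the highest vehicle library were all but equal (log2 fold change 0.38, adjusted p = 0.135). Mrpl50 was the steadiest member on imatinib, with a CV of 1.06%. It had 17.1, 17.2 and 17.5 CPM on imatinib, against 13.9, 12.6 and 14.3 CPM on vehicle, and a log2 fold change of 0.34 that did not pass (adjusted p = 0.128).

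Of the 30 large-subunit proteins with a bacterial counterpart, 0 passed the test, 23 lay above 0 and the median was 0.12 under TMM (-0.62 with scaling to the CD3 genes, where all 30 lay below 0, 0.05 after the dependence on length and GC was removed, and 0.08 without imatinib replicate 2). Mrpl9, the counterpart of bacterial L9, came closest. It had 46.2, 39.2 and 40.4 CPM on imatinib, against 30.1, 34.7 and 28.8 CPM on vehicle. The groups did not overlap, with a log2 fold change of 0.43 ± 0.12 and an adjusted p of 0.0533. It passed with DESeq2 (adjusted p = 0.0313), with limma voom (adjusted p = 0.0487) and with the stricter filter (adjusted p = 0.0491), and its log2 fold change was -0.29 (adjusted p = 0.514) with scaling to the CD3 genes. A share of 5.81% of its exon bases overlaps Oaz3 on the other strand, and whether the counting used strand is not given in the sources used here.

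Mrpl34, the counterpart of bacterial L34, had 16.3, 15.7 and 14.8 CPM on imatinib, against 12.3, 9.67 and 12.1 CPM on vehicle. The groups did not overlap, and the log2 fold change of 0.46 did not pass (adjusted p = 0.0912). Mrpl24, the counterpart of bacterial L24, had 31.6, 32.2 and 29.3 CPM on imatinib, against 31.3, 40.2 and 32.4 CPM on vehicle. Its groups overlapped (log2 fold change -0.16, adjusted p = 0.450).

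Mrps36 bears a symbol of the family but is now known as a subunit of the oxoglutarate dehydrogenase complex. It had 15.7, 21.02 and 19.7 CPM on imatinib, against 16.6, 14.5 and 13.8 CPM on vehicle, and the groups overlapped (log2 fold change 0.33, adjusted p = 0.208). By symbol alone, 39 of 49 Mrpl genes and 18 of 29 Mrps genes lay above 0 under TMM, with medians of 0.13 and 0.12, and all lay below 0 with scaling to the CD3 genes. Mrpl9, Mrpl34, Mrpl44, Mrpl50, Mrpl58, Mrps23, Mrps33, Mrps11, Mrps17, Mrps18a, Mrps18c, Mrps27, Mrps36 and Mrpl39 were picked for description after their values were seen.

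**Figure D3:**
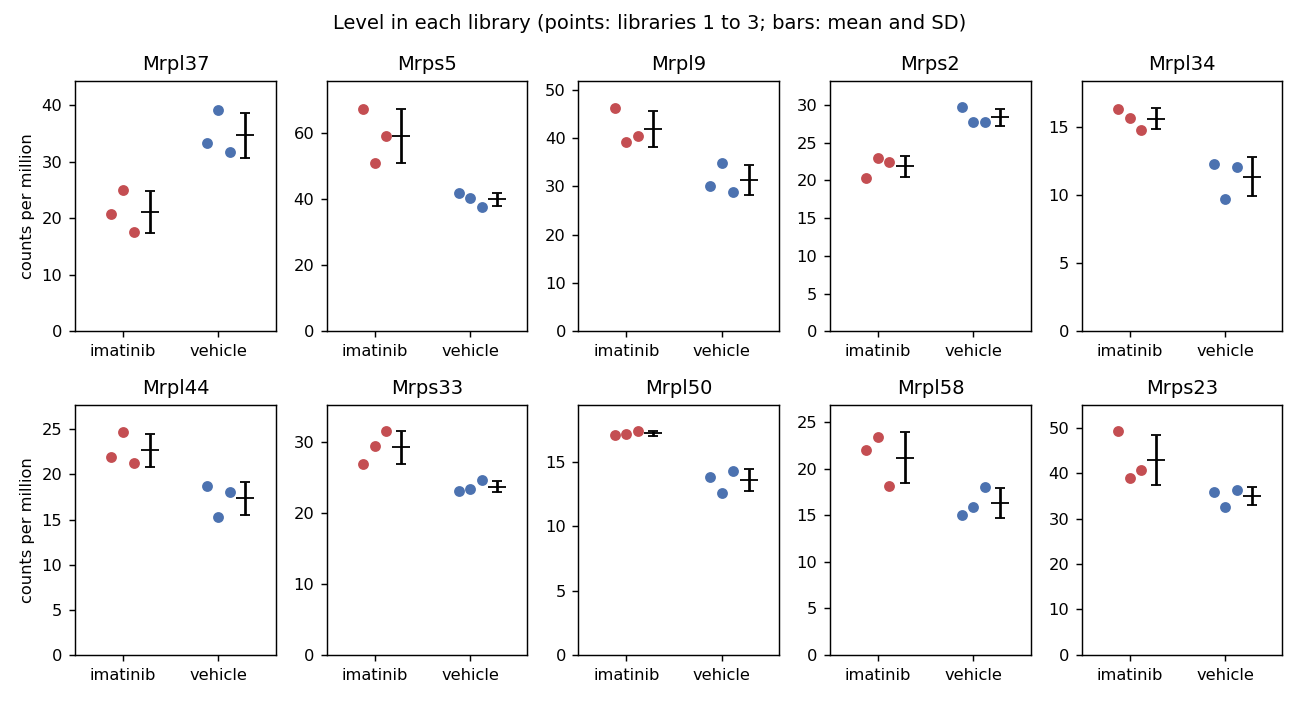
Level in CPM (vertical axes, from 0) of the 10 members at an unadjusted p under 0.05, in the 3 imatinib libraries (left, red) and the 3 vehicle libraries (right, blue) of each panel, with the mean and SD beside the points. Mrpl37 and Mrps2 lie lower on imatinib and the other 8 higher, without overlap in any panel, and only Mrpl37 and Mrps5 pass the adjusted test.

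Compared per length, the members differed in level by more than imatinib changed any of them. Over all 6 libraries the mean level was highest for Mrpl52 at 75.7 CPM per kb of transcript, followed by Mrps21 at 56.5, Mrpl30 at 43.4, Mrpl23 at 43.3 and Mrpl42 at 43.2 CPM per kb. It was lowest for Mrps25 at 2.23, Mrpl1 at 2.41 and Mrpl47 at 2.64 CPM per kb, all of which have long annotated transcripts. None of these 8 passed the test.

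Mrpl52, a large-subunit protein found only in mitochondria, had 27.0, 33.8 and 34.5 CPM on imatinib, against 34.7, 27.2 and 32.5 CPM on vehicle (log2 fold change 0.01). Mrps21, the counterpart of bacterial S21, had 25.4, 36.7 and 31.0 CPM on imatinib, against 26.1, 25.3 and 20.7 CPM on vehicle (log2 fold change 0.37, adjusted p = 0.165). The groups overlapped in both. Mrpl30, Mrpl23 and Mrpl42 had log2 fold changes of 0.08, 0.02 and 0.15, and Mrps25, Mrpl1 and Mrpl47 of -0.01, -0.04 and -0.18.

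The spread between libraries of a group was small. The median CV of the members was 12.6% on imatinib and 9.38% on vehicle, against 18.4% and 14.3% for all genes tested, which were not matched to the members for level. The single values ranged from 1.06% (Mrpl50) to 46.0% (Mrps18b) on imatinib and from 1.23% (Mrpl39) to 27.0% (Mrps25) on vehicle. Libraries of a group were not evenly placed. Imatinib library 2 was the highest of its group in 40 of 78 members and the lowest in 14, and without it 51 members lay above 0 and the median was 0.08. Vehicle library 2 was the lowest of its group in 33 and the highest in 17, and without it the median was 0.08 as well.

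Summed over the 78 members, the level was 1693, 1771 and 1660 CPM in the imatinib libraries, against 1588, 1535 and 1571 CPM in the vehicle libraries. The groups did not overlap, and the mean of 1708 ± 57.1 CPM on imatinib was 1.09 times the 1565 ± 26.8 CPM on vehicle (SD, n = 3 each). Under TMM the ratios were larger for the nuclear respiratory chain subunits and the cytosolic ribosomal proteins. With scaling to the CD3 genes the order was the same, and the members again had the lowest median log2 fold change of the 3 families (-0.60, against -0.49 for respiratory chain subunits and -0.24 for cytosolic ribosomal proteins). The nuclear subunits of the respiratory chain and ATP synthase summed to 6328 ± 183 CPM on imatinib and 5178 ± 146 CPM on vehicle, a ratio of 1.22. The cytosolic ribosomal proteins summed to 63655 ± 3685 CPM on imatinib and 44767 ± 1925 CPM on vehicle, a ratio of 1.42.

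Set against those families, the share of the members was lower on imatinib. For every 100 counts of cytosolic ribosomal protein genes there were 2.85, 2.67 and 2.54 of the members on imatinib, against 3.40, 3.59 and 3.50 on vehicle. For every 100 counts of nuclear respiratory chain genes there were 27.0 ± 0.316 on imatinib and 30.2 ± 0.340 on vehicle. The groups did not overlap in either ratio. Both ratios are taken within a library and do not depend on the scaling between libraries.

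**Figure D4:**
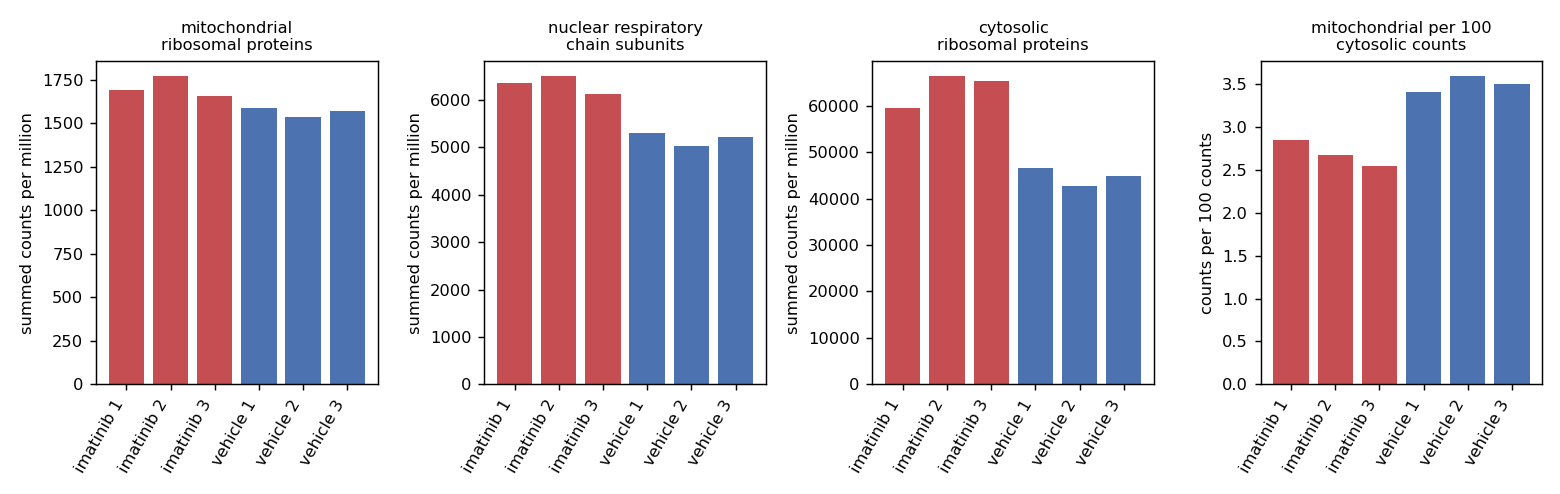
Summed level in CPM (vertical axes, from 0) of the mitochondrial ribosomal proteins, the nuclear respiratory chain subunits and the cytosolic ribosomal proteins, and the mitochondrial per 100 cytosolic ribosomal protein counts, in each imatinib library (red) and each vehicle library (blue). The imatinib sums are 1.09, 1.22 and 1.42 times the vehicle sums under TMM, while the median log2 fold changes of these families are -0.60, -0.49 and -0.24 with scaling to the CD3 genes, and the ratio in the last panel is 2.54 to 2.85 on imatinib against 3.40 to 3.59 on vehicle.

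Gene by gene, 73 of 85 tested cytosolic ribosomal proteins were higher and 1 lower on imatinib, against 6.15% and 8.42% of all genes tested. Their median log2 fold change was 0.49 under TMM and -0.24 with scaling to the CD3 genes. Relative to the median of all genes they lay 0.47 and 0.48 higher. Rplp0, a protein of the stalk of the large cytosolic subunit, had 2012, 2172 and 1971 CPM on imatinib, against 1356, 1192 and 1323 CPM on vehicle (log2 fold change 0.67, adjusted p = 0.00989). The imatinib libraries were all above the vehicle libraries. Rps14 was higher by 0.64 (adjusted p = 0.0112) and Rps3a2 by 0.65 (adjusted p = 0.00674) on the log2 scale, and the 1 lower gene, Rps10, had 0.742 to 1.67 CPM on imatinib against 2.67 to 3.997 CPM on vehicle (log2 fold change -1.56, adjusted p = 0.0435). Many of these genes have near-identical copies and their counts are uncertain. The number higher was 0 with scaling to the CD3 genes, 34 after removal of the dependence on transcript length and GC, 8 without imatinib replicate 3, and 24, 12 and 7 without vehicle replicates 1, 2 and 3.

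Of the nuclear respiratory chain subunits, 15 of 84 were higher and 0 lower, against 6.15% and 8.42% of all genes tested. Under TMM the median was 0.25 and 79 of 84 lay above 0. With scaling to the CD3 genes the median was -0.49, and the 2 medians lay 0.24 and 0.23 above all genes. The higher genes included Ndufb11, Ndufa1 and Ndufa4, which belong to or copurify with complex I or IV (log2 fold changes 0.53, 0.52 and 0.48), and Cox7a2l (0.47). The number higher was 6 with library totals, 8 with the length and GC trend removed and 0 with scaling to the CD3 genes. It was 5 and 6 without imatinib replicates 1 and 2, and 0 without imatinib replicate 3 or any 1 of the vehicle libraries.

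The transcripts of the mitochondrial genome, which the mitochondrial ribosome reads or is built from, had 0 of 15 past the test. Their log2 fold changes were all above 0 under TMM, from 0.06 to 0.58, with a median of 0.24, and all 15 were below 0 with scaling to the CD3 genes (median -0.52). The side rested on single libraries, since 8 of 15 lay above 0 without vehicle replicate 1 (median 0.0016) and 13 of 15 without imatinib replicate 1 (median 0.10). mt-Co1, which encodes the catalytic subunit of complex IV, had 21737, 18582 and 18929 CPM on imatinib, against 12276, 22861 and 19703 CPM on vehicle. Vehicle library 1 was far below the other 5, and the groups overlapped (log2 fold change 0.11, adjusted p = 0.772, and -0.13 without vehicle replicate 1). mt-Atp6, a subunit of ATP synthase, had 5510 to 6989 CPM on imatinib against 2745 to 5597 CPM on vehicle, with overlap (log2 fold change 0.48, adjusted p = 0.243). Near-identical nuclear copies make these counts uncertain.

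The 5 ribosomal proteins of mitochondria that bear other symbols were close to the members, with 0 past the test, 4 above 0 and a median of 0.24 under TMM (-0.51 with scaling to the CD3 genes, 0.13 without imatinib replicate 2). Dap3, a GTP-binding protein of the small subunit, had 31.1, 36.4 and 34.4 CPM on imatinib, against 28.6, 31.4 and 31.0 CPM on vehicle (log2 fold change 0.16). Aurkaip1, also of the small subunit, had 42.9, 51.1 and 43.8 CPM on imatinib, against 38.0, 38.2 and 37.7 CPM on vehicle (log2 fold change 0.27, adjusted p = 0.133). Only Aurkaip1 was free of overlap.

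The factors that build, serve and regulate the mitochondrial ribosome are described next. Of the 25 assembly factors, 8 lay above 0 and the median was -0.25 under TMM, 0.26 below all genes both with TMM and with scaling to the CD3 genes. By the same test 6.15% of all genes were higher and 8.42% lower. The 1 assembly factor that passed was higher, Ddx28, an RNA helicase of large-subunit assembly. It had 22.5, 19.9 and 18.8 CPM on imatinib, against 15.1, 14.1 and 13.2 CPM on vehicle, without overlap (log2 fold change 0.53, adjusted p = 0.0425). The adjusted p of Ddx28 lay between 0.0617 and 0.134 when any 1 library was left out, and its log2 fold change was -0.20 with scaling to the CD3 genes.

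Of the 14 translation factors, 0 were higher and 1 lower, against 6.15% and 8.42% of all genes tested. Their median was -0.05 under TMM and -0.80 with scaling to the CD3 genes. The median was -0.15 without imatinib replicate 1, -0.011 without imatinib replicate 2 and -0.0028 without imatinib replicate 3, and between -0.09 and -0.08 without 1 vehicle library. The lower one was Gfm2, which splits the mitochondrial ribosome for recycling after a chain is finished. It had 27.3, 24.6 and 20.9 CPM on imatinib, against 43.1, 48.5 and 39.0 CPM on vehicle, and the groups lay well apart (log2 fold change -0.84 ± 0.14, adjusted p = 0.0107). The adjusted p stayed between 0.0120 and 0.0460 when any 1 library was left out.

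Of the 17 aminoacyl-tRNA synthetases that charge tRNAs in mitochondria, 0 were higher and 3 lower, against 6.15% and 8.42% of all genes tested. Their median was -0.15 (-0.25 without imatinib replicate 3, -0.09 without imatinib replicate 2). Cars2, the cysteinyl-tRNA synthetase, had 10.3, 12.2 and 10.02 CPM on imatinib, against 17.4, 25.3 and 14.9 CPM on vehicle (log2 fold change -0.82, adjusted p = 0.0385). Aars2, for alanine, had 7.19, 9.55 and 10.1 CPM on imatinib, against 15.9, 14.6 and 14.7 CPM on vehicle (log2 fold change -0.75, adjusted p = 0.0302). Hars2, for histidine, had 21.3, 20.2 and 20.5 CPM on imatinib, against 25.95, 37.1 and 30.2 CPM on vehicle (log2 fold change -0.59, adjusted p = 0.0356). All 3 were without overlap. The number lower was 5 with library totals, 8 with scaling to the CD3 genes and 5 with DESeq2, and it was 0 without imatinib replicate 1, imatinib replicate 3 or vehicle replicate 2 and 1 without vehicle replicate 1 or 3.

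Among the 11 genes of mitochondrial DNA replication and transcription, 10 lay below 0. The 1 that passed was lower, as were 8.42% of all genes tested. It was Polg2, the accessory subunit of the mitochondrial DNA polymerase. It had 5.29, 6.23 and 7.40 CPM on imatinib, against 9.02, 14.1 and 11.8 CPM on vehicle (log2 fold change -0.88, adjusted p = 0.0394). The groups did not overlap, and the adjusted p was 0.04996 without vehicle replicate 1 and lay between 0.0544 and 0.139 when any other library was left out.

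Of the 10 regulators of nuclear genes for mitochondria, 3 were lower and 0 higher, against 8.42% and 6.15% of all genes tested. The list was evenly split, with 5 above 0, 5 below and a median of 0.04 under TMM (-0.66 with scaling to the CD3 genes). Its median was -0.25 without imatinib replicate 1. Pprc1, a coactivator related to PGC-1, had 34.3, 35.7 and 33.0 CPM on imatinib, against 74.5, 60.8 and 70.3 CPM on vehicle (log2 fold change -0.998 ± 0.115, adjusted p = 0.00408). Every imatinib library was close to the same level and far below every vehicle library. Myc, a transcription factor that drives ribosome production, had 36.5, 44.8 and 34.1 CPM on imatinib, against 63.6, 60.7 and 76.1 CPM on vehicle (log2 fold change -0.80, adjusted p = 0.0125). Esrra, a nuclear receptor that acts on mitochondrial genes, had 23.1, 34.3 and 30.4 CPM on imatinib, against 45.4, 51.4 and 44.6 CPM on vehicle (log2 fold change -0.69, adjusted p = 0.0252). Pprc1 passed whichever library was left out (adjusted p at most 0.0263). Without imatinib replicate 3 the adjusted p was 0.0529 for Myc and 0.0726 for Esrra, and without any 1 of the vehicle libraries it was 0.0621 to 0.0889 for Esrra.

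The members are spread over 17 chromosomes, with 11 on chromosome 11. Their transcripts are short, with a median of 1302 bases against 2604 bases for the genes tested, and their GC content of 50.4% is near the 50.03% of those genes. After the dependence on length and GC was removed from each library, 51 of 78 members lay above 0 and the median was 0.10. The exons of 33 members overlap another gene, and the median log2 fold change was 0.14 in these and 0.10 in the 45 without overlap.

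A number of members share a start region with a neighbour. A paired start means that another protein-coding gene begins on the opposite strand within 500 bases, which held for 18 of 78 members (23.1%) and for 1244 of 13050 tested protein-coding genes (9.53%). Mrps5 with Zfp661 and Mrpl37 with Cyb5rl are such pairs. Mrpl49, which starts 59 bases from Fau, a gene whose product is processed to a cytosolic ribosomal protein, gave a log2 fold change of 0.31 (adjusted p = 0.170) beside 0.44 (adjusted p = 0.0517) for Fau. Mrps12, which starts 172 bases from Sars2, a mitochondrial synthetase, had 0.31 (adjusted p = 0.325) beside -0.13 (adjusted p = 0.636) for Sars2. These partners were looked up after the values were seen.

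The median of the members stayed above that of all genes under every alternative tried. The difference between the 2 medians was 0.06 to 0.15 when 1 library was left out, 0.11 with library totals, 0.12 with scaling to the CD3 genes, 0.21 with no filter on low counts and 0.08 with the length and GC trend removed. A change of scaling alone moves all genes almost alike, so those alternatives could hardly change this difference. The number of members called at an adjusted p under 0.05 ranged from 0 to 5, and it was 6 at an adjusted p under 0.1. Scaling to the CD3 genes gave the 5, Mrpl37, Mrps10, Mrps18b, Mrps2 and Mrps27, all lower, in a fit where 4678 of 16621 genes were lower.

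**Figure D5:**
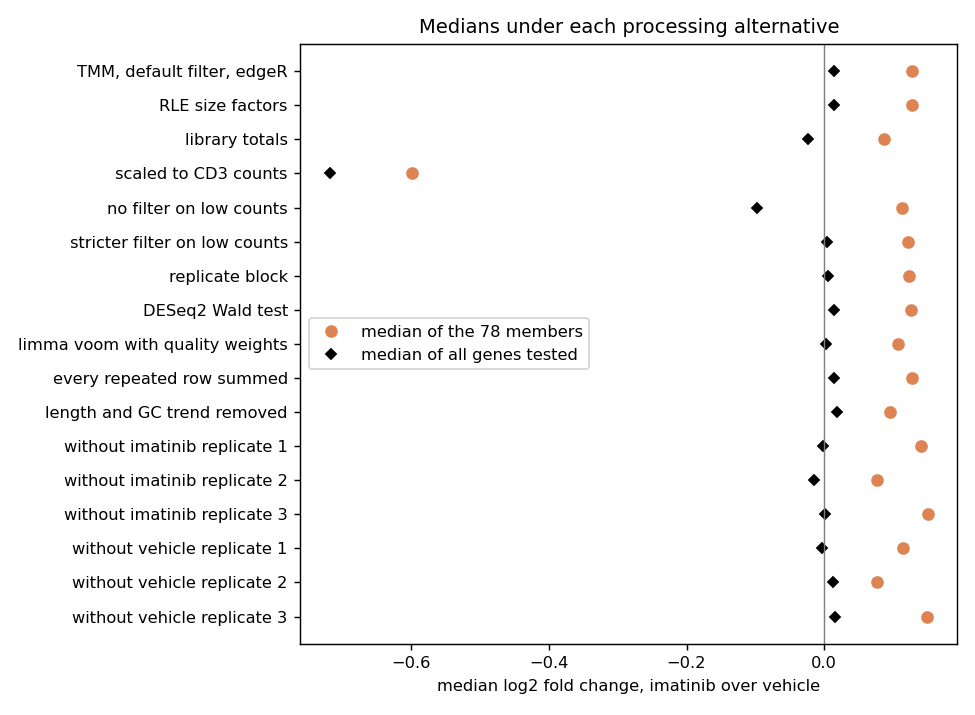
Median log2 fold change, imatinib over vehicle (horizontal axis), of the 78 members (circles) and of all genes tested (diamonds) under each processing alternative (rows). The members lie to the right of all genes in every row, at 0.13 against 0.01 in the first, and both medians are negative, at -0.60 and -0.72, with scaling to the CD3 genes.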

How the data were processed

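γδ T cells (CD45+CD3+NK1.1-TCRγδ+) were sorted from tumors of vehicle and imatinib treated mice, and poly(A) RNA was sequenced on a HiSeq 2500. Reads were aligned by STAR against mm10 (GRCm38), and the authors made the deposited counts per gene by featureCounts. Which annotation and strand option they used, and how multiply mapped reads were handled, is not given in the sources used here. The study's text names γδ T cells, whereas the design text of the record names regulatory T cells.

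The deposited table held whole-number counts in 57332 rows. The 3016 rows without a symbol (0.118% to 0.158% of the counts of a library) were left out, 1013 exact repeats were dropped and, for 78 symbols, the remaining rows were added up. In all 3 columns that match no sample were left unread. Genes were filtered (filterByExpr), scaled by TMM and tested with robust quasi-likelihood fits in edgeR 4.0.16 (R 4.3.3), with Benjamini-Hochberg adjustment over 16621 genes. The SE is the log2 fold change divided by the square root of F. The script was tested on simulated data. CPM are TMM-scaled; levels per kb use the longest principal transcript of GENCODE M21. The common biological coefficient of variation, which edgeR estimated over the genes tested, was 29.1%, and intervals from counting alone would be narrower. It is a different quantity from the CV of CPM within a group given above.

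The members and lists were chosen with earlier results of these data known. Named genes were the members past an adjusted p of 0.05, the 5 highest and 3 lowest in level per kb, the 5 with the smallest p against the sign of the median, and from each other list up to 4 called genes with the largest fold change or else the 2 with the highest mean. Exceptions are stated where they occur. Alternatives were DESeq2 1.42.0, limma 3.58.1 (voom), other scalings and filters, a replicate block, removal of a length and GC trend, and leaving out each library.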

Additional observations from a re-analysis of the deposited data

How the results depend on the processing

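Members higher and lower numbered 1 and 1 in the standard fit. They numbered 1 and 2 with library totals, 0 and 5 with scaling to the CD3 genes, 2 and 2 with the stricter filter, 0 and 1 with the replicate block, 2 and 1 with DESeq2, 2 and 1 with limma voom, 0 and 0 with an added log2 fold change beyond 1, and 4 and 2 at an adjusted p under 0.1. Leaving out 1 library gave 0 to 1 higher and 0 to 2 lower. The median of the members was -0.60 with scaling to the CD3 genes, and 0.0763 (without imatinib replicate 2) to 0.15 when 1 library was left out.

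All genes higher and lower numbered 135 and 4678 with scaling to the CD3 genes, 173 and 437 with the replicate block, 1634 and 2024 with DESeq2, 304 and 540 beyond a log2 fold change of 1, and 1761 and 2176 at an adjusted p under 0.1. Leaving out 1 library gave 182 to 1171 higher and 503 to 1780 lower. The cause of these shifts was not tested.

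Among the called members and the called genes named from the compared lists, those that changed sign did so with scaling to the CD3 genes. The log2 fold change there was -0.18 for Mrps5, -0.20 for Ddx28, -0.0659 for Rplp0, -0.0784 for Rps3a2, -0.0938 for Rps14, -0.18 for Ndufb11, -0.16 for Ndufa1, -0.20 for Ndufa4 and -0.26 for Cox7a2l. Called genes that are not named, and markers, are not listed here. Counts for lists and single genes were classed as the same in 749 cases, moved in 101, weaker in 91, stronger in 9 and reversed in 9.

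The replicate numbers did not pair the libraries (correlation of deviations -0.21, -0.06 and -0.06 for numbers 1, 2 and 3). With the replicate block the adjusted p was 0.0728 for Mrps5 and 0.0460 for Mrpl37. No library correlated best with its own number. With 3 libraries a group and a median SE of 0.16, a log2 change the size of the median of the members is not detectable in a single member.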
